A study of Homo sapiens with 3 samples.

Results

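H3K27ac summits deep inside very long genes are the called peaks of acetylated histone H3 lysine 27 that lie within a protein-coding gene span and more than 100000 bases from every protein-coding span end. They were chosen by position alone, from the deposited summit list and the RefSeq gene table of GRCh38.p14, and numbered 308 of the 3201 H3K27ac summits (9.62%, 95% Wilson interval 8.65 to 10.7). The cells were H1299, an established lung cancer line whose labels call it human lung adenocarcinoma. They were profiled by CUT&RUN, in which an antibody tethers a nuclease to chromatin and the released DNA is sequenced. There was 1 library for H3K27ac, 1 for the transcription factor SP1 and 1 for the negative control IgG, which is not analysed here. The labels name no treatment or genotype. With 1 library per antibody no difference below has a replicate, and intervals cover counting error only. Read depth is unknown, because the files hold called positions without reads.

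H3K27ac is deposited by the acetyltransferases p300 and CBP and marks active promoters and enhancers. Enhancers often lie in introns, and a very long gene has room for many positions far from its own start. Genes of this length are known for encoding adhesion molecules, synaptic proteins, channels and signalling regulators, and several lie in common fragile sites. The gene table gives spans and not exons, so intron and exon could not be told apart here.

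A small set of these summits lay at starts of transcripts annotated within the long gene, and the sequence around those starts is shown first because sequence at the other summits is not used here. The RefSeq table of GRCh38.p14 gives 300 bases for each listed start, from 250 before it to 50 after it. It holds 35116 windows, on chromosomes that carry 276 of the 308 summits. Of these, 10 lay within 1000 bases of a listed start (3.62%, Wilson interval 1.98 to 6.54), whereas 0.658% of the deep gene length on the same chromosomes lay that close. For SP1 summits under the same position rule the count was 3 of 191 (1.57%, 0.536 to 4.52). DLGAP1 alone held 4 of the 10, and without that gene 6 of 267 were left (2.25%, 1.03 to 4.82). The windows below are those at the 2 highest-scoring of the 10, followed by those of the other 3 genes whose window contains a deep summit. Capitals mark the letters GGGCGG (the GC box, the element bound by SP1), TGANTCA (the AP-1 element), CCAAT and TATAAA, each searched on both strands. No marked elements overlap in these windows.
DLGAP1-AS6, chr18:3652780-3653079, plus strand: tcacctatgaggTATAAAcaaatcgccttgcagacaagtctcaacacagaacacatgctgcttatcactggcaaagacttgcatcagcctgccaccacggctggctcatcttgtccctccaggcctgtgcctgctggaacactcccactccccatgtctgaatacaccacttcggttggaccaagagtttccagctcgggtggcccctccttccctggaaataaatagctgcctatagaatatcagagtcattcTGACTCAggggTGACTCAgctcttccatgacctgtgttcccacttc
DLGAP1-AS2, chr18:3603487-3603786, plus strand: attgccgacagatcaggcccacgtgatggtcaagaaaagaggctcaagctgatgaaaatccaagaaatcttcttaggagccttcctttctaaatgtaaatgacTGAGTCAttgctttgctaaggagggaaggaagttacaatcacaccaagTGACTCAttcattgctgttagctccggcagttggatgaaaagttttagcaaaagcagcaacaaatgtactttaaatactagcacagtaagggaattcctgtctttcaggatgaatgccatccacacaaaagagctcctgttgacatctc
DNAH5-AS1, chr5:13860189-13860488, plus strand: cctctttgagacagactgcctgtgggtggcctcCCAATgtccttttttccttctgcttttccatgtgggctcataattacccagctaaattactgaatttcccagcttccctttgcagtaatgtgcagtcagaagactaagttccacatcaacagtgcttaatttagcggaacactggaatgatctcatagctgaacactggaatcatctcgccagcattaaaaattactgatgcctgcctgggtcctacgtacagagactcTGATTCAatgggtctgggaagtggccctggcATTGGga
TCF4, chr18:55510723-55511022, minus strand: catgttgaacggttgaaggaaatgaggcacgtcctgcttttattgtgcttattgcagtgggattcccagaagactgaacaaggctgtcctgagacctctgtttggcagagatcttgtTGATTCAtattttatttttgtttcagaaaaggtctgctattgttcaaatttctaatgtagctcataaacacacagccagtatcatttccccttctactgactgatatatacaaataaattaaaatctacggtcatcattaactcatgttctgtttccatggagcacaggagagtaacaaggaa
LOC124909454, chr3:169241811-169242110, plus strand: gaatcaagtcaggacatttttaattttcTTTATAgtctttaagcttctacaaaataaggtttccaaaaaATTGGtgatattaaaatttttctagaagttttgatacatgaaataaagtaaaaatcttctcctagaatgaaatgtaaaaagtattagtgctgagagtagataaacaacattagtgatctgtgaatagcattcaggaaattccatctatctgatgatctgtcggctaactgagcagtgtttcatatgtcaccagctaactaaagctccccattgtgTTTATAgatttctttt

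The summit with score 7.16 lies 165 bases before the DLGAP1-AS6 start, and the one with score 13.6 lies 211 bases after it. DLGAP1-AS6 has a further listed start, whose window overlaps the one shown, also contains the summit with score 7.16 and is not printed. The window of DLGAP1-AS2 contains an SP1 summit at 3603512 with a score of 5.61, and the H3K27ac summit with score 11.0 lies 912 bases after that start. The summits at the other 3 starts were weak, with scores of 4.58 at DNAH5-AS1 (13 bases from the start), 3.94 at the internal start of TCF4 (171 bases) and 3.93 at LOC124909454 inside MECOM (44 bases).

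The GC box was rare and the letters TGANTCA were frequent in these windows. Counting every window whose start lay within 1000 bases of a deep H3K27ac summit gave 11 windows of 10 genes. A GC box was present in 2 of the 11, the overlapping windows of MKLN1 and its antisense transcript MKLN1-AS, and it was present in 45.0% of all 35116 windows. The letters TGANTCA were present in 6 of the 11, the DLGAP1-AS6 windows counting for 2 of these, and in 7.71% of all windows. In the windows of DNAH5-AS1 and TCF4 the match was TGATTCA, whose middle base is outside the AP-1 consensus TGACTCA or TGAGTCA. The share over all windows counts any middle base too. CCAAT was found in 6 of 11 and 34.6% of all windows, with a pair of overlapping matches in that of HDAC9, and TATAAA in 2 of 11 and 11.5%. The MKLN1 windows had 30 and 32 CG dinucleotides, the others 0 to 4, and the median over all windows was 14. These windows were few and were described after their summits were known, so the matches are a description of letters and not of bound sites.

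Deep summits were as dense as those in the rest of gene bodies. Whether these calls stand for enhancers or for scattered background was not tested. The deep interior of genes measured 291.5 Mb and held 1.06 H3K27ac summits per Mb (exact Poisson interval 0.942 to 1.18), against 1.08 per Mb (1.02 to 1.15) in the 971.8 Mb of gene span nearer to an end. Deep positions made up 23.1% of gene span length and received 22.6% of the H3K27ac summits inside genes. SP1 had 0.731 deep summits per Mb (0.636 to 0.836), against 2.66 per Mb (2.56 to 2.76) nearer to an end. The deep share was 9.62% of H3K27ac summits and 3.82% of SP1 summits (3.35 to 4.36).

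The profile with distance was nearly flat on both sides of the 100 kb limit. From the nearest gene end inward, the H3K27ac density was 2.09 per Mb in the first 1 kb, 0.945 at 1 to 5 kb, 0.977 at 5 to 20 kb, 1.11 at 20 to 50 kb and 1.08 at 50 to 100 kb. Within the deep interior it was 1.16 at 100 to 150 kb (116 summits, Poisson interval 0.961 to 1.39), 1.05 at 150 to 200 kb (62, 0.802 to 1.34), 1.02 at 200 to 300 kb (63, 0.784 to 1.31) and 1.15 at 300 to 500 kb (55, 0.863 to 1.49). Beyond 500 kb it was 0.527 (0.272 to 0.921), on 12 summits. SP1 density was 31.2 per Mb in the first 1 kb, 0.956 at 50 to 100 kb, 0.832 at 100 to 150 kb and 0.483 beyond 500 kb.

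**Figure D1:**
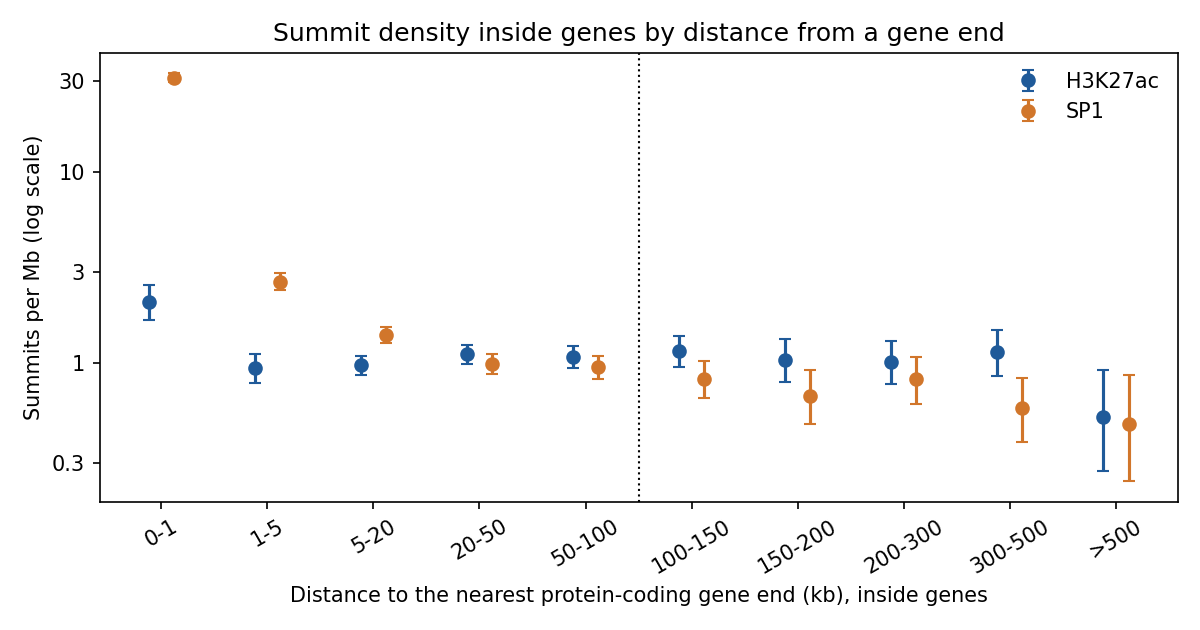
Summits per Mb (log scale) against distance to the nearest protein-coding gene end, for positions inside genes; points are H3K27ac (blue) and SP1 (orange), bars are exact 95% Poisson intervals, and the dotted line is the 100 kb limit. H3K27ac stays between 0.945 and 1.16 per Mb from 1 to 500 kb and is 0.527 beyond that, while SP1 is 31.2 per Mb in the first 1 kb.

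Scores of the deep summits had nearly the same median as the rest of the list. A score is the authors' own value for the peak. Judging by its form it is on a −log10 scale, and whether it stands for p or q is unknown. The median was 5.0 (quartiles 4.24 and 5.89) for deep summits, against 5.05 for summits in genes nearer to an end, 5.0 for summits between genes within 100 kb of an end and 5.06 for summits further from genes. Deep summits exceeded the list median of 5.01 in 153 of 308 cases (49.7%, Wilson interval 44.1 to 55.2). A score above 10 was reached by 4 of the 308 (1.30%, 0.506 to 3.29), by 13 of 1053 in genes nearer to an end (1.23%, 0.723 to 2.10) and by 41 of 893 far from genes (4.59%, 3.4 to 6.17). The highest deep score was 13.6, which ranked 42 in the list. Few distinct values occurred. The 308 summits had 155 different scores, and 20 of them shared the value 5.10.

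The members just inside the limit were in C8orf34 (100100 bases from the nearest end, score 5.47), SPECC1 (100209 bases, 5.61) and SLC25A48 (100698 bases, 5.10). Just outside it lay a summit in SIPA1L3 at 98903 bases with a score of 3.62 and a pair in DLGAP1 at 98602 and 98592 bases with scores of 3.75 and 8.81. The last of these is therefore not counted among the DLGAP1 summits below.

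Several of the strongest deep summits shared a gene. DLGAP1, which encodes a scaffold protein of the postsynaptic density, held the highest score, and RAD51B, a gene of homologous recombination repair, the next. Of the 10 highest summits, 2 were in each of these genes and 2 in FMNL2, which encodes a formin that elongates actin filaments. The remaining 4 were in MED27, a subunit gene of the Mediator coactivator (9.55), ADAMTSL1, which encodes a secreted glycoprotein of the matrix (9.20), CNBD1 (8.51) and SGCD, which encodes the delta subunit of the sarcoglycan complex (8.37).

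DLGAP1 spans 3496032 to 4455307 on the minus strand of chromosome 18, a length of 959 kb, and held 9 deep H3K27ac summits. Of these, 6 lay 802 to 851 kb from the gene start, in 3 pairs. The pair at 3604649 and 3605943, beside DLGAP1-AS2, scored 11.0 and 6.23. The pair at 3624333 and 3624845 scored 6.25 and 6.92 and formed the region ranked 46 of 2710. The pair at 3652865 and 3653241, beside DLGAP1-AS6, scored 7.16 and 13.6. The other 3 lay 166 to 222 kb from the gene start, with scores of 4.53, 6.18 and 5.30. The stretch of 580.3 kb between both groups held no H3K27ac summit (0 called). SP1 summits stood beside 2 of the pairs, at 3603512 (5.61) and 3623879 (6.09), and 3 more lay within the deep part, at 3748842 (6.16), 3825917 (4.35) and 4149885 (3.91). The gene's deep interior of 0.759 Mb had 11.9 H3K27ac summits per Mb, against 1.03 (0.915 to 1.15) in all deep interior without DLGAP1.

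RAD51B spans 67819779 to 68683096 on the plus strand of chromosome 14 and held 6 deep summits. They lay 269 to 728 kb from its start. The highest, at 68140274, scored 11.2 and shared the region ranked 5, from 68140143 to 68146944, with one at 68146760 that scored 6.65. The summit at 68089268 scored 10.6 and formed the region ranked 100. Those at 68547891 (6.53) and 68232694 (6.91) formed regions ranked 116 and 128, and the one at 68118944 (5.51) a region ranked 1830. A single deep SP1 summit was called in RAD51B, at 68125276 with a score of 3.64. The deep part of the gene had 9.05 H3K27ac summits per Mb.

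FMNL2 spans 152335174 to 152649826 on the plus strand of chromosome 2. Its 3 summits stood together 170 to 172 kb from the start, at 152504903 (7.07), 152505885 (9.11) and 152506994 (9.25). They formed 1 region of 2627 bases ranked 13. No SP1 summit was called in the span of FMNL2, and the nearest was 211159 bases from the strongest of these summits.

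**Figure D2:**
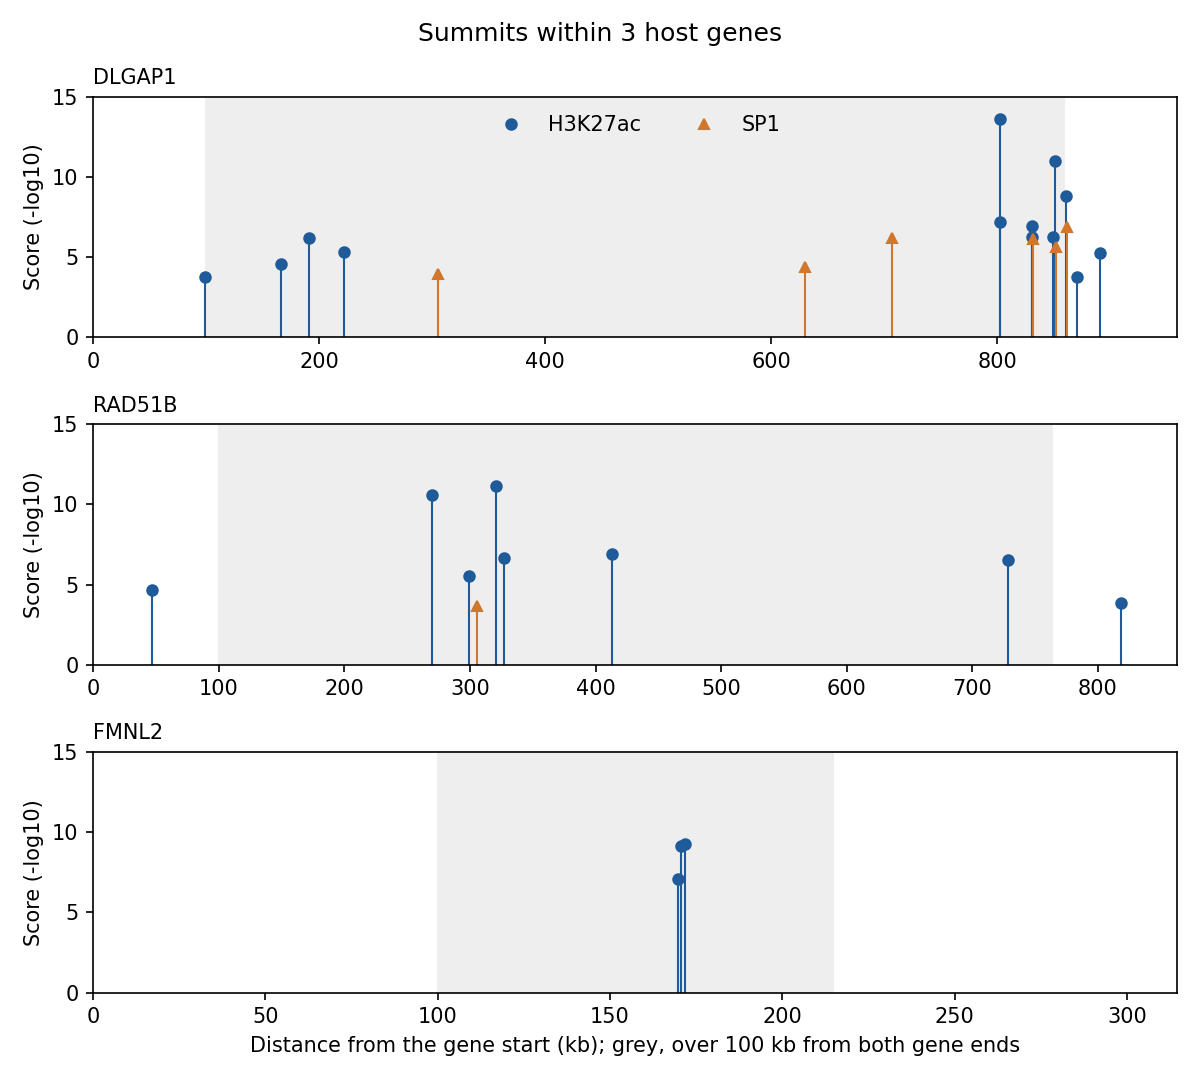
Score (−log10 scale, judging by its form) of every summit against its distance from the gene start in kb, for DLGAP1, RAD51B and FMNL2. Blue circles are H3K27ac, orange triangles SP1, and grey marks positions over 100 kb from both ends. The DLGAP1 summits fall into groups at 166 to 222 kb and 802 to 851 kb, those of RAD51B spread over 269 to 728 kb, and those of FMNL2 lie at 170 to 172 kb.

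Apart from these loci the members were scattered. The 308 summits fell in 215 of the 1317 genes with any deep interior (16.3%), counting both genes of the 2 summits that lay in overlapping spans. Of the 215, 153 held 1 deep summit, 40 held 2 and 22 held 3 or more. Another deep summit lay within 10000 bases of only 17 of the 308 (5.52%, 3.47 to 8.66), and within 100000 bases of 77 (25%, 20.5 to 30.1). The genes with most summits after DLGAP1 and RAD51B were SOX5, a SoxD transcription factor gene, and PCDH15, which encodes a protocadherin of hair cell tip links, with 4 each. The SOX5 summits scored 4.55 to 6.93 and lay 221 to 726 kb from its start, and the highest in PCDH15 scored 5.62. SGCD, NAALADL2, MAGI2, a scaffold gene of cell junctions, EYS, which encodes a matrix protein of photoreceptors, and LRP1B, of the LDL receptor family, had 3 each, with top scores from 5.99 (EYS and LRP1B) to 8.37 (SGCD).

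Deep summits lay along their genes much as the deep length did. Strand was known for the single host of 248 summits. Of these, 129 lay in the 50% of the gene nearer to its start (52.0%, Wilson interval 45.8 to 58.2), where 50.2% of the deep length lay. With genes cut into 4 equal stretches from the start, the shares were 13.3%, 38.7%, 34.3% and 13.7%, beside 11.9%, 38.3%, 38.1% and 11.8% of the deep length. The span of a lncRNA gene covered 25 of the 308 summits (8.12%, 5.56 to 11.7) and 6.21% of the deep length.

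Longer genes held a deep summit more often, while the density per Mb varied less. The share was 2.87% for spans of 200 to 300 kb (16 of 558), 16.0% for 300 to 500 kb (71 of 445), 34.7% for 500 to 1000 kb (85 of 245) and 62.3% above 1000 kb (43 of 69, Wilson interval 50.5 to 72.8). Per Mb of deep interior the values were 0.720 (0.420 to 1.15), 1.04 (0.829 to 1.29), 1.16 (0.972 to 1.38) and 1.03 (0.822 to 1.29). Host genes had a median length of 577 kb, against 302 kb for the other 1102.

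**Figure D3:**
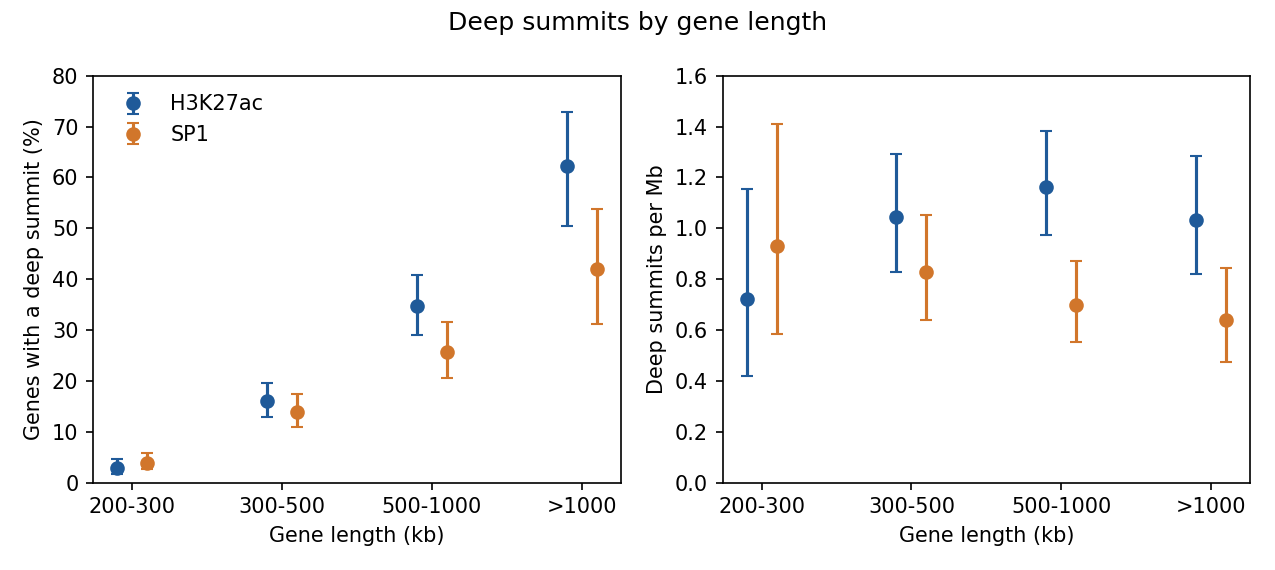
Share of genes with a deep summit (left, percent, 95% Wilson intervals) and deep summits per Mb of deep interior (right, exact 95% Poisson intervals) by gene length in kb, for H3K27ac (blue) and SP1 (orange). The H3K27ac share climbs to 62.3% above 1000 kb, while its density lies between 0.720 and 1.16 per Mb.

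Gene groups were read against the 16.3% of all genes with a deep interior and, because long genes are hit more often, against their density of 1.06 per Mb (0.946 to 1.19). Each list was made up from textbook knowledge, but with earlier results of these data known, so the shares and densities are no independent support. Only members with a deep interior were counted. The lists overlap, so their shares are not separate observations. FHIT, WWOX and LRP1B count as holders among both fragile site and lung cancer genes, and ROBO1 among both neural adhesion and lung cancer genes. Common fragile site genes held a deep summit in 13 of 25 (52.0%, 33.5 to 70.0), and their median length was 1380 kb. Per Mb they had 0.830 summits (0.532 to 1.23). Among the highest were FHIT, a tumour suppressor gene of the most fragile human site (2 summits, top score 8.07), NAALADL2 (3, 6.68) and AUTS2 (2, 6.18). The mitochondrial peptidase gene IMMP2L was among those with none.

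Neural adhesion and axon guidance genes held one in 14 of 27 (51.9%, 34.0 to 69.3), at 0.997 per Mb (0.632 to 1.5). The highest were in NLGN1, which encodes a postsynaptic adhesion protein (1 summit, 7.48), CTNNA2, an alpha-catenin gene (2, 7.34), CNTNAP5 (2, 6.93) and NRXN3, a presynaptic neurexin gene (2, 6.80). The contactin genes CNTN4 and CNTN5 had none. Channel, pump and neurotransmitter receptor genes held one in 8 of 22 (36.4%, 19.7 to 57.0), at 1.05 per Mb (0.540 to 1.83). They were led by the potassium channel gene KCNQ5 (7.95), the phospholipid flippase gene ATP8A2 (6.41), the calcium release channel gene RYR3 (6.35) and the potassium channel gene KCNH7 (5.94). The glutamate receptor genes GRID1 and GRIK2 had none.

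Kinase, phosphodiesterase and small GTPase signalling genes held one in 6 of 26 (23.1%, 11.0 to 42.1), at 0.677 per Mb (0.248 to 1.47). PLCB1, a phospholipase C gene, scored 6.93, PDE3A, which encodes a cyclic nucleotide phosphodiesterase, 5.70, the kinase gene STK39 4.84 and PRKG1, a cGMP-dependent kinase gene, 4.48. The phosphodiesterase genes PDE4B and PDE10A had none. Transcription factor and chromatin regulator genes held one in 5 of 33 (15.2%, 6.65 to 30.9), at 0.536 per Mb (0.174 to 1.25). These included HDAC9, a class IIa histone deacetylase gene (6.11), the zinc finger and homeodomain gene ZFHX3 (5.47), the nuclear receptor gene RORA (4.68) and TCF4 (3.94). RUNX1 and FOXP1 had none.

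Cytoskeleton, matrix and cell-matrix adhesion genes held one in 5 of 24 (20.8%, 9.24 to 40.5), at 1.25 per Mb (0.539 to 2.46). FMNL2 led with 9.25, followed by the receptor phosphatase gene PTPRM (5.28), CTNND2, a delta-catenin gene (4.58), and THSD4 (3.97). MACF1 and FMN1 had none. Without FMNL2 the density was 0.795, with an interval (0.258 to 1.85) that contains the value of all genes. Genes altered or deleted in lung cancer held one in 10 of 19 (52.6%, 31.7 to 72.7), at 1.45 per Mb (0.937 to 2.14). RAD51B led (6 summits, 11.2), followed by FHIT, the guidance receptor gene ROBO1 (2, 6.54) and the oxidoreductase gene WWOX (2, 6.05). ERBB4, a receptor tyrosine kinase gene, and the cadherin gene CDH13 had none. Without RAD51B the density was 1.14 (0.689 to 1.79). Leaving out the member with most deep summits (ties by higher top score) lowered the density of every list, an outcome that this choice of member favours beforehand. The interval of every list's density contained that of all genes, 1.06 per Mb.

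**Figure D4:**
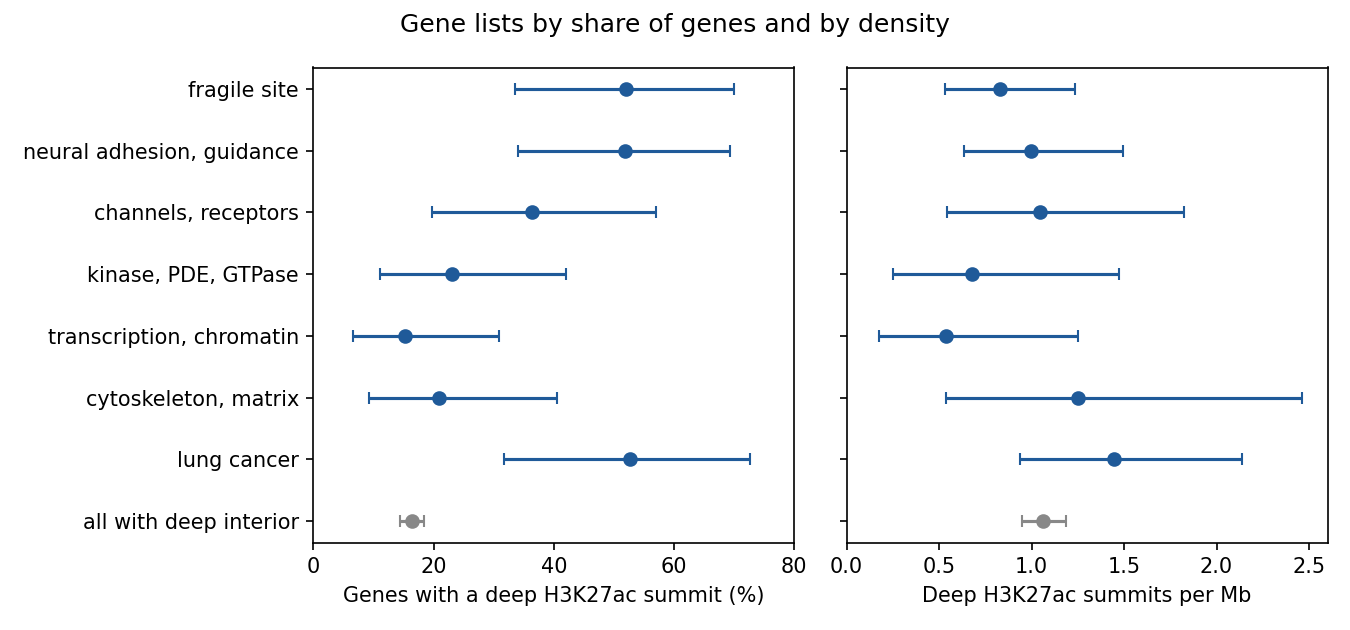
Share of genes with a deep H3K27ac summit (left, percent, 95% Wilson intervals) and deep H3K27ac summits per Mb of deep interior (right, exact 95% Poisson intervals) for 7 gene lists (blue) and all genes with a deep interior (grey). The shares spread from 15.2% to 52.6% around 16.3%, while the interval of every density covers 1.06 per Mb.

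The deep density differed between chromosomes. It was 2.36 per Mb on chromosome 18 (18 summits, Poisson interval 1.40 to 3.73), 1.96 on chromosome 14 (16, 1.12 to 3.19), 1.89 on chromosome 8 (32, 1.29 to 2.67) and 1.83 on chromosome 12 (22, 1.15 to 2.77). Without DLGAP1 the value on chromosome 18 was 1.31 (0.600 to 2.49), and without RAD51B that on chromosome 14 was 1.34 (0.641 to 2.46). Low values were 0.399 on chromosome 13 (4 summits), 0.528 on chromosome 11 (8) and 0.532 on chromosome 4 (10). No deep summit was called on chromosomes 21 (2.25 Mb of deep interior), 19 (0.507 Mb) and Y (0.712 Mb). The X chromosome also held none, in 12.1 Mb of deep interior, which includes DMD, the dystrophin gene. The exact Poisson upper limit on the X was 0.304 per Mb, and the limit of 3 counts was 0.247 per Mb. Nearer to gene ends the X also had few, 0.129 per Mb on 5 summits.

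Deep density and density nearer to gene ends varied together across chromosomes, with exceptions. Over 21 chromosomes with at least 2 Mb of deep interior, the deep density and the density nearer to gene ends had a Pearson r of 0.798 and a Spearman rho of 0.880. On chromosome 12 the values were 1.83 and 1.80 per Mb, on chromosome 8 1.89 and 1.73, and on chromosome 4 0.532 and 0.682. Other chromosomes differed more, with 2.36 deep and 1.19 nearer on chromosome 18, 1.78 and 1.12 on chromosome 17, and 1.20 and 1.70 on chromosome 6. Deep H3K27ac and deep SP1 density had an r of 0.655 and a rho of 0.662. The points of each correlation come from the same cells, and in the first from the same library. The number of copies of each chromosome in these cells was not measured here.

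**Figure D5:**
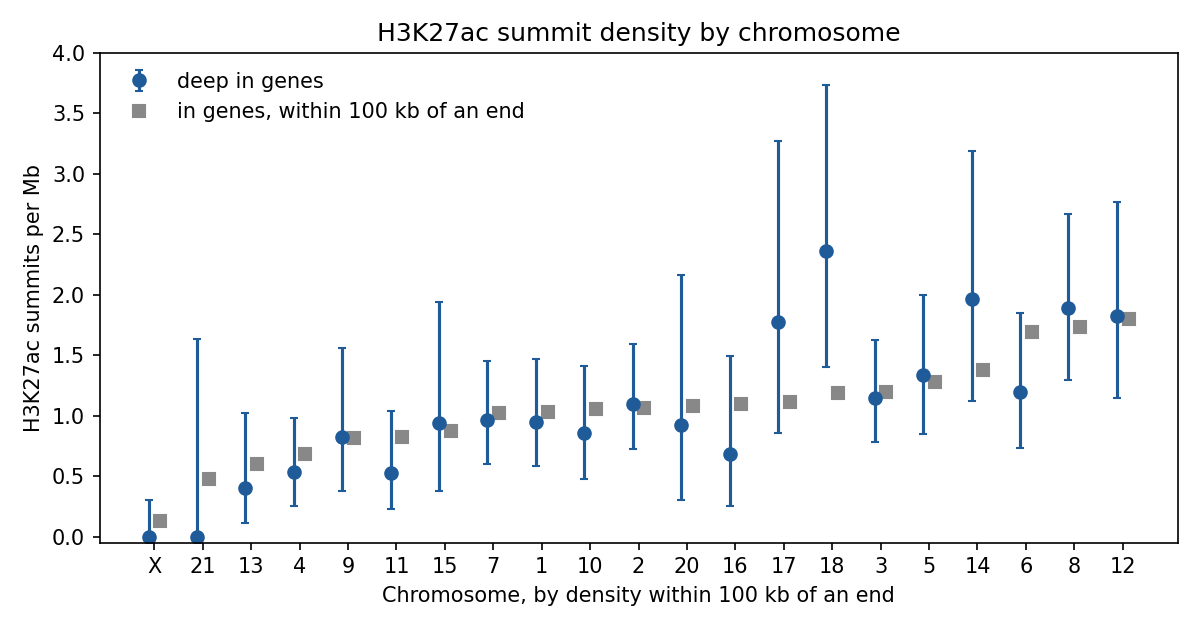
H3K27ac summits per Mb for the 21 chromosomes with at least 2 Mb of deep interior, deep in genes (blue circles, exact 95% Poisson intervals) and in genes within 100 kb of an end (grey squares), ordered by the grey values. Of those shown, the X chromosome is lowest in grey, with 0 deep and 0.129 nearer per Mb, and chromosome 12 highest, with 1.83 and 1.80.

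SP1 was rarely called beside a deep H3K27ac summit. An SP1 summit lay within 500 bases of 2 of the 308 (0.649%, Wilson interval 0.178 to 2.34), against 133 of all 3201 H3K27ac summits (4.15%, 3.52 to 4.90). The counts were 39 of the 1053 in genes nearer to an end (3.70%, 2.72 to 5.02) and 57 of the 893 far from genes (6.38%, 4.96 to 8.18). The 2 were the DLGAP1 summit at 3624333, 454 bases from SP1, and one in CNBD1 on chromosome 8 at 87261701, with a score of 8.51 and SP1 at 41 bases. The CNBD1 summit was also the only deep one inside an SP1 region. The median distance to the nearest SP1 summit was 264 kb for deep summits and 173 kb over all H3K27ac summits. It was 114 kb for those in genes nearer to an end and 273 kb for those far from genes. The position rule keeps deep summits from gene ends, where SP1 was densest, so these values are not independent of it.

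At the level of genes the libraries met more often. A deep SP1 summit was called in 69 of the 215 host genes (32.1%, 26.2 to 38.6), against 107 of the other 1102 genes with a deep interior (9.71%, 8.10 to 11.6) and 13.4% of all 1317. Host genes were longer, so the shares were also taken by length. At 200 to 300 kb they were 12.5% (3.50 to 36.0) of hosts against 3.69% (2.40 to 5.63) of the others, and at 300 to 500 kb 21.1% (13.2 to 32.0) against 12.6% (9.58 to 16.3). At 500 to 1000 kb they were 36.5% (27 to 47.1) of hosts against 20% (14.5 to 26.9) of the others, and above 1000 kb 48.8% (34.6 to 63.2) against 30.8% (16.5 to 50). Hosts had the higher share in each of these length groups, and the intervals overlapped in all but that of 500 to 1000 kb. Within the first 3 length groups hosts also had more deep length, with medians of 58.4 against 39.3 kb, 191.6 against 169.1 kb and 480.9 against 407.5 kb, and above 1000 kb 995 against 1008 kb. The part of deep length and of the chromosome in this was not tested. Within 1000 bases of the gene ends hosts did not stand apart. An SP1 summit lay within 1000 bases of an end in 15 hosts (6.98%, 4.27 to 11.2), against 77 of the others (6.99%, 5.63 to 8.65), with 6.99% over all genes with a deep interior and 13.7% over all 20037 protein-coding genes. An H3K27ac summit lay there in 3 hosts (1.40%, 0.476 to 4.02) and 12 of the others (1.09%, 0.624 to 1.89), and in 1.14% of all. Over the whole part of the span within 100 kb of a protein-coding end, hosts did differ. An H3K27ac summit lay in that part in 63 hosts (29.3%, 23.6 to 35.7), against 196 of the others (17.8%, 15.6 to 20.2) and 19.7% of all. The part of gene length and of the chromosome in this was not tested either.

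Nearly all deep summits were in the deposited list of ranked regions. They numbered 296 of 308 (96.1%, Wilson interval 93.3 to 97.8), against 2827 of all 3201 H3K27ac summits (88.3%, 87.2 to 89.4). The counts were 844 of 1053 in genes nearer to an end (80.2%, 77.6 to 82.4) and 854 of 893 far from genes (95.6%, 94.1 to 96.8). SP1 summits showed the same trait with SP1 regions. The share was 96.2% for deep SP1 summits (205 of 213), 31.6% in genes nearer to an end, 96.0% far from genes and 44.1% over all SP1 summits. The position rule keeps deep summits away from gene ends, and its part in these shares was not tested. The 287 regions that the deep summits formed were mostly single peaks (97.2%, against 96.4% of all 2710 regions). Their median length was 228 bases (234.5 over all), and the shortest was 219 bases in both. Their median rank of 1499 was worse than the list's median of 1355.5. The best-ranked 271 regions held 30 of the deep summits (9.74%, 6.91 to 13.6) and 12.1% of all H3K27ac summits. After RAD51B at 5 and FMNL2 at 13, the best ranks were those of SDK2, a sidekick adhesion gene (45), DLGAP1 (46), VPS13B, a lipid transfer protein gene (50), TTC28 (62) and ANO4, of the anoctamin family (83). RAD51B followed at 100 and 116 and FRMD6, a FERM domain gene, at 117. A rank near the top did not need a high score. The SDK2 region was 9663 bases long with a top score of 4.01, and that of VPS13B was 12621 bases long with 5.47. Of these 10 regions, 8 joined more than 1 peak, and none overlapped an SP1 region.

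The 12 deep summits outside every ranked region lay mostly at annotated starts. All but one were within 2500 bases of a listed transcript start, 11 of 12 (91.7%, 64.6 to 98.5), against 1 of 264 in a ranked region (0.379%, 0.0669 to 2.11), both without chromosome 8. The contrast is one between summits kept in and left out of the region list, whose making is not given. Whether places near starts were left out when that list was made was not tested. They included 5 of the 9 in DLGAP1, at the starts of DLGAP1-AS2, DLGAP1-AS5 and DLGAP1-AS6. The others at a start were in HDAC9 (score 6.11, 312 bases from an internal start of the gene), PDE3A (5.70, 2029 bases), DNAH5, a ciliary dynein gene (4.58), BCAR3, an adhesion signalling adaptor gene (4.39, at LOC102723480), MKLN1 (4.09) and TCF4 (3.94). The exception was a summit in PATJ, a cell polarity gene, with a score of 3.88. The highest deep summit of the list, in DLGAP1, was in no ranked region.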

How the data were processed

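CUT&RUN libraries of H1299 cells with antibodies against H3K27ac and SP1 were used, 1 each. The authors deposited, for each, a list of summits, with a score in −log10 units judging by its form (p or q is not stated), and a list of regions whose score column is a rank. Per the submitters' processing notes, the build was hg38, with cutadapt 2.5 and deepTools 3.4.1 among the tools. Aligner, peak caller and calling control: not given in the sources used here.

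Summit positions are 1-based. Spans of 20037 protein-coding genes on 24 chromosomes came from RefSeq (GRCh38.p14), and strand from its table of start windows, which covers 15842 of them and holds none on chromosome 8. Deep length is the gene span over 100000 bases from every span end. Shares have 95% Wilson intervals and counts per Mb exact Poisson intervals. Both treat summits as independent. Python 3.11.15, pandas 2.3.3 and scipy 1.17.1 were used, and the position code was tested on simulated data. No p-value was computed.

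The members, gene lists and measures were chosen with earlier results of these data known. Genes named are hosts of the 10 highest summits, of the 10 best-ranked regions and of SP1 neighbours, the 10 with most summits, and from each list up to 4 with the highest summit and the first 2 without one. Some genes that this rule names are not reported here. Also named are those at the distance limit, at listed starts and outside regions, with DMD, chosen after their values were seen.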

Additional observations from a re-analysis of the deposited data

How the results depend on the processing

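No paired analysis was possible because each antibody had a single library. Of 62 alternative values, 31 stayed within the 95% interval of the value as reported (counts, within 1.5 times) and 31 moved, most of them by construction, since a distance or a score filter sets how many summits enter. The summits per Mb stayed within the interval with distances over 50 kb or 200 kb, with ends of genes of every kind, with summits within 10000 bases joined, without DLGAP1 and without chromosome X, both of which were chosen after seeing the data. The median score did so under the 3 settings tried.

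With a distance over 50 kb there were 530 deep H3K27ac summits, 16.6% of the list, and 7.34% of SP1 summits. Of genes with such an interior 23% held one, and 11 transcription factor and chromatin regulator genes did. Over 200 kb there were 130 (4.06%, and 1.62% for SP1), 99.2% of them in a ranked region and 0% with SP1 near, and 19.3% of genes held one. List counts were then 4 for channels and receptors, 0 for kinases and GTPases and 1 for transcription factors. With ends of genes of every kind 97 were left (3.03%, and 1.04% for SP1).

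With summits above the list median there were 153, at 0.525 per Mb, in 9.11% of genes, and 1.22% of SP1 summits were deep. List counts were 8 for fragile sites, 9 for neural adhesion, 2 each for kinases, transcription factors and cytoskeleton, and 6 for lung cancer. Above the upper quartile there were 70, and 0.287% for SP1. The better-ranked 50% of regions held 42.2% of deep summits, and 40.8% of spans above 500 kb held one. The files hold no reads, so how depth limits these values could not be tested.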
